A study of Mus musculus with 24 samples.

Results

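The comparison was of 6 ieET-1 with 6 ieCre male mice, all killed 3 months after tamoxifen, and its readout was total RNA of the mesenteric arteries, the small arteries that feed the intestine. Mice of both genotypes carried a tamoxifen-inducible Cre recombinase driven by the Tie2 promoter, which is active in endothelium and also in some blood-forming cells. The ieCre mice carried the recombinase alone and served as controls. In ieET-1 mice the recombinase additionally switched on human endothelin-1. All were 10 to 12 weeks old when they received tamoxifen under the skin, at 1 mg/kg per day for 5 days, so the recombinase and the drug were common to both groups. The 12 libraries were chosen by the genotype and the time in their labels, out of 24 in all; the other 12 came from different mice killed 16 days after tamoxifen. A library stands for 1 mouse, and the animal IDs serve as names below. The IDs fall into 2 ranges, one of 80xx to 81xx and one of 94xx. The lower range holds ieCre mice 8088 and 8089 and ieET-1 mice 8134, 8135, 8136 and 8152, and the higher range holds ieCre mice 9485, 9486, 9487 and 9491 and ieET-1 mice 9489 and 9490. What the ranges stand for is not given in the sources used here.

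Endothelin-1 is a peptide that endothelial cells release onto the smooth muscle beneath them. It contracts that muscle through the receptor encoded by Ednra, while the receptor encoded by Ednrb on endothelium is coupled to the release of nitric oxide and prostacyclin. The gene on which the comparison turned was Khdrbs3, which encodes an RNA-binding protein of the STAR family, also called SLM2 or T-STAR. In mouse brain this protein sets the choice of alternative exons in the neurexin transcripts. The title of the study ties it to splice isoforms of Vegfa, the vascular endothelial growth factor that acts on endothelium. The values used here are 1 per gene, so isoforms were not analysed here.

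Khdrbs3 has a close relative, Khdrbs1, which encodes Sam68, and reads of similar genes can be assigned to the wrong one. Coding sequence of each gene around the longest run of bases that the coding sequences share is therefore shown, 5′ to 3′, from the GENCODE transcripts on GRCm38, with that run of 15 bases in capitals. The Khdrbs3 stretch is coding bases 94 to 228 of 1041 and lies within chr15:68995057-69013378 on the plus strand. The Khdrbs1 stretch is coding bases 394 to 528 of 1332 and lies within chr4:129727651-129730314 on the minus strand. Both are joined across introns.
Khdrbs3: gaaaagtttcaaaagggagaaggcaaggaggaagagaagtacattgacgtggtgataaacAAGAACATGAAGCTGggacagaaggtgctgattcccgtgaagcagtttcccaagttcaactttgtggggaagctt
Khdrbs1: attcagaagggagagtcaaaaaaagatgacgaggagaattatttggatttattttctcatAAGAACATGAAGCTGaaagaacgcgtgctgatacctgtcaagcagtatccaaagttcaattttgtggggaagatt
Of the 3708 different words of 50 bases in the annotated Khdrbs3 transcripts, 0 occur in those of Khdrbs1.

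A value below is a normalised read count, the reads of a gene in a library divided by the library's effective size, on a scale close to CPM. The 12 libraries held 9635250 to 16181605 reads on genes, and a value of 3 reads was worth 0.177 to 0.461. Smooth muscle Acta2 lay between 2635 and 6600 and endothelial Pecam1 between 1032 and 1739 in all 12 mice, so transcripts of smooth muscle and endothelium were present in each. Gm42418, which takes up ribosomal RNA reads, held 11.5% of the reads of ieCre mouse 9491, 21.3% of those of ieET-1 mouse 8135 and 11.9% of those of ieET-1 mouse 8136. The library of ieET-1 mouse 9489 had reads on 24399 genes and a value of 1364 for Gm10801, a gene of repeat-like sequence, against at most 11.3 in the other 11 mice.

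The mouse endothelin-1 gene, Edn1, had like values in both genotypes. In ieCre mice Edn1 ranged from 23.5 to 36.0 with a median of 33.3, and in ieET-1 mice from 24.1 to 37.7 with a median of 31.9. The ranges overlapped along nearly their whole length. The log2 difference, ieET-1 minus ieCre on the log2(value + 1) scale used throughout, was −0.01 with a 95% interval of −0.27 to 0.24 (2-sided exact permutation p = 0.890, n = 6 and 6; 3 such tests were made). The human transgene has no row of its own among the values used here, so the labels could not be checked against it.

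Khdrbs3 rose in arteries of ieET-1 mice, and it was the 1 gene of 14544 tested (0.00688%) that passed the threshold. It lies at chr15:68928420-69101211 on the plus strand of GRCm38. In ieCre mice its value was 52.5 in mouse 8088, 62.5 in 8089, 54.9 in 9485, 57.5 in 9486, 46.8 in 9487 and 51.1 in 9491. In ieET-1 mice it was 86.7 in mouse 8134, 79.9 in 8135, 86.5 in 8136, 88.4 in 8152, 89.4 in 9489 and 92.4 in 9490. Each ieET-1 mouse stood above each ieCre mouse, with a gap between the groups wider than the spread within either. The mean was 54.2 ± 5.45 in controls and 87.2 ± 4.18 in ieET-1 mice (SD, n = 6 each), a ratio of 1.61. The log2 difference was 0.68 with a standard error of 0.08 and a 95% interval of 0.51 to 0.86, and its adjusted p in limma, which fits all genes at once and adjusts by Benjamini-Hochberg, was 0.000413. An exact 2-sided permutation test of this gene alone gave p = 0.00216, the smallest that 6 mice against 6 allow, or 0.00649 adjusted over the 3 tests made. Any gene whose groups do not overlap reaches that p. Khdrbs3 was chosen with earlier results of these data known, and neither permutation p allows for that choice. The values rest on 435 to 975 reads per library in ieCre and 520 to 1464 in ieET-1 mice.

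**Figure D1:**
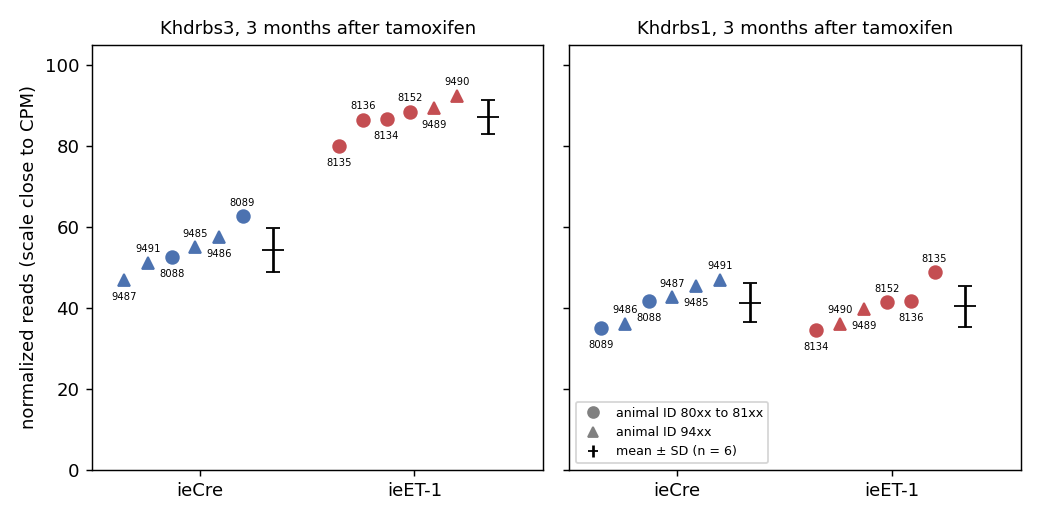
Normalised read counts of Khdrbs3 and its relative Khdrbs1 in each of the 12 mice, by genotype; circles are mice with IDs of 80xx to 81xx, triangles those of 94xx, and bars give the mean ± SD (n = 6). For Khdrbs3 the ieET-1 mice sit between 79.9 and 92.4, all above the ieCre mice at 46.8 to 62.5, while the groups overlap for Khdrbs1.

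The rise of Khdrbs3 was present in both ID ranges. Among 80xx to 81xx mice controls averaged 57.5 and ieET-1 mice 85.4, and among 94xx mice they averaged 52.6 and 90.9. The log2 difference was 0.57 within the lower range (adjusted p = 0.591 in limma, 2 ieCre against 4 ieET-1 mice) and 0.78 within the higher (adjusted p = 0.0277, 4 against 2). The difference between those differences was 0.22 with a 95% interval of −0.15 to 0.59. With the ID range as a term the log2 difference was 0.67 and the adjusted p 0.00165. Within the lower range the genotypes have separate runs of IDs, and this term cannot adjust for a difference between those runs. Without the 3 libraries high in Gm42418 the log2 difference was 0.70.

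The other STAR genes did not pass the threshold. Khdrbs1 had means of 41.2 ± 4.85 in ieCre and 40.3 ± 5.04 in ieET-1 mice (SD, n = 6 each), a log2 difference of −0.03 with an interval of −0.24 to 0.17. Khdrbs2, the third gene of the KHDRBS family, held at most 3 reads in any of the 12 libraries and was too low to test. Qk, whose product quaking binds RNA in smooth muscle and glia, had means of 267 ± 24 and 253 ± 15.9 and a log2 difference of −0.07. For Sf1, which encodes the protein that first binds the intron branch point, the log2 difference was −0.04. Of 31 tested splicing regulators, 0 passed in limma and 0 had an unadjusted p under 0.05, with a median log2 difference of 0.00. For 29 of them the 95% interval lay within a 1.5-fold difference in either direction on the log2(value + 1) scale. Of the transcripts that Khdrbs3 is known to splice in mouse brain, Nrxn2 had a log2 difference of −0.18 and Lysmd4 of −0.10, and neither passed. These are gene totals and say nothing about which exons were used.

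Genes that flank Khdrbs3 on chromosome 15 did not pass the threshold. The log2 difference was 0.14 for Zfat, a zinc finger gene, 0.39 for Trappc9, a vesicle transport gene (unadjusted p = 0.0601 in limma, or 0.18 once the ID range was a term), and −0.21 for St3gal1, a sialyltransferase (unadjusted p = 0.0930). For Ndrg1 it was 0.11, for Chrac1 −0.10, for the Argonaute gene Ago2 0.16 and for the focal adhesion kinase Ptk2 0.06. Among the genes whose values most resembled those of Khdrbs3 over the 24 libraries, after the mean of each genotype and time was taken off, were Phf10, Rnd3, Htr2a and Nexmif, with Pearson's r of 0.661 to 0.665, given as a description of libraries that share depth and composition. Their own log2 differences between genotypes lay between −0.20 for Rnd3 and −0.00 for Htr2a, and none of these 4 passed.

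Beyond Khdrbs3, mean levels in the genotypes lay close together. The median log2 difference over the 14544 genes was −0.01, with 6964 genes higher and 7580 lower in ieET-1 mice on average, and the median standard error was 0.14. An unadjusted p under 0.05 was reached by 435 genes (2.99%) in limma, 187 of them higher (1.29%) and 248 lower (1.71%), where 727.2 would be expected by chance alone. Whether the count lay below that number depended on the setting. It ran from 309 to 906 when 1 mouse was left out, highest without ieET-1 mouse 9489, and was 884 with library weights. No gene passed in the lower direction (0 in limma, 0 in edgeR and 0 in DESeq2), and the second-smallest adjusted p in limma was 0.999. With edgeR's quasi-likelihood test on the recovered reads 518 genes had an unadjusted p under 0.05 and with DESeq2 538 of 14522, and each of these tools called 1 gene, Khdrbs3. On the log2(value + 1) scale the 95% interval lay within a 1.5-fold difference for 12196 (83.9%) and within 2-fold for 14067 (96.7%). The added 1 shrinks differences of genes of low value, so their intervals can count as inside although the fold itself is larger. That limit holds for all such counts of intervals, those of the lists included. Counts were also simulated for all 24 libraries, from each gene's mean over the 24 and each library's depth. In them 100 genes differed by 1.5-fold and 100 others by 2-fold in this comparison, all at once. There limma called 46.0% of the former and 84.0% of the latter, with 11 false calls among 14344 unchanged genes. The Benjamini-Hochberg threshold is easier to pass when many genes differ. A gene that differed alone would be called less often than these shares say. Each count was drawn independently, with no ID ranges and no shared tissue content, so these shares need not hold for the mice themselves.

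**Figure D2:**
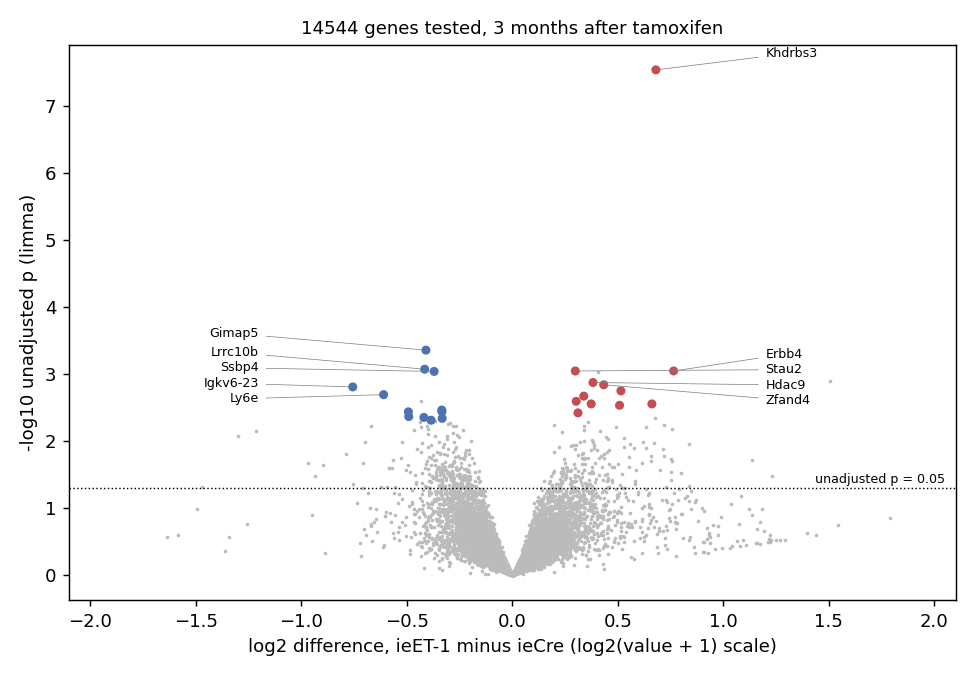
The log2 difference (ieET-1 minus ieCre, 3 months after tamoxifen) of each of 14544 genes against −log10 of its unadjusted limma p; the dotted line marks an unadjusted p of 0.05 and coloured points are the 24 genes described individually. Khdrbs3, at 0.68, stands alone above all others.

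The 23 other genes described individually complete the 12 of smallest p in each direction, with predicted genes and pseudogenes left aside. All had an adjusted p of 0.999 in limma, so the differences below were not called. Those higher in ieET-1 mice included genes of receptors and adhesion proteins at synapses and on other cells. Erbb4, a receptor for neuregulins, ranged from 1.88 to 4.42 with a median of 2.49 in ieCre mice and from 2.43 to 8.25 with a median of 5.63 in ieET-1 mice. Its log2 difference was 0.76 (SE 0.20, unadjusted p = 0.000895), and it was 0.33 among 80xx to 81xx mice and 1.29 among 94xx mice. The highest ieCre value, in mouse 8088, was well inside the ieET-1 range. Nlgn3, a neuroligin that binds neurexins across the synapse, ranged from 1.41 to 2.24 with a median of 1.66 and from 1.97 to 4.65 with a median of 2.60 (log2 difference 0.51). Ptprd, a receptor tyrosine phosphatase that also organises synapses, ranged from 34.8 to 47.3 and from 42.6 to 56.2 (0.30). The genotypes overlapped at the edges of their ranges for both genes.

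Stau2, which encodes a double-stranded RNA-binding protein that carries mRNA within cells, was 1 of the genes without overlap. It ranged from 10.8 to 12.9 with a median of 12.4 in ieCre mice and from 13.4 to 17.1 with a median of 14.8 in ieET-1 mice, and its log2 difference was 0.30 (SE 0.08). Hdac9, a class IIa histone deacetylase, ranged from 8.24 to 11.2 with a median of 9.91 and from 11.1 to 14.9 with a median of 13.2 (0.38). Its groups crossed at a single pair, ieET-1 mouse 8135 at 11.1 and ieCre mouse 9485 at 11.2. Zfand4, an AN1-type zinc finger gene, ranged from 1.41 to 2.0 and from 2.08 to 3.32 with no overlap (0.43). Nadk2, the mitochondrial NAD kinase, ranged from 10.9 to 15.5 with a median of 13.5 and from 13.1 to 21.1 with a median of 17.2 (0.34). Its log2 difference was 0.43 when the ID range entered the fit, with an adjusted p of 0.378 in limma, the second-smallest there. Adamtsl3, a secreted matrix glycoprotein of the ADAMTS-like family, ranged from 46.2 to 63.6 and from 62.2 to 89.0 (0.37), with the top of the ieCre range just inside the ieET-1 range. Fancc, a gene of the Fanconi anaemia DNA repair pathway, ranged from 13.9 to 17.2 and from 16.1 to 24 (0.31). The 2 genes of lowest level in this direction, with medians of 0.314 to 1.43, were Galnt5, an enzyme that begins mucin-type O-glycans (0.66), and Rps6kl1, a relative of the ribosomal S6 kinases (0.51).

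Of the genes with lower values in ieET-1 mice, Gimap5, which encodes a GTPase that lymphocytes need to survive, ranged from 8.19 to 10.3 with a median of 9.12 in ieCre mice and from 5.60 to 8.60 with a median of 6.59 in ieET-1 mice. Its log2 difference was −0.41 (SE 0.10, unadjusted p = 0.000437), and the ranges overlapped only between 8.19 and 8.60. Def6, a guanine nucleotide exchange factor of T lymphocytes, ranged from 4.94 to 7.72 and from 2.51 to 5.68 (−0.49). Igkv6-23, a variable segment of the immunoglobulin kappa chain, ranged from 0.704 to 4.45 and from 0.307 to 1.15 (−0.76). In bulk arteries, fewer cells of a type and less RNA per cell cannot be told apart.

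The other genes of this direction have mixed roles. Ly6e, an interferon-inducible protein anchored in the membrane, ranged from 103 to 194 with a median of 156 in ieCre mice and from 57.4 to 142 with a median of 106 in ieET-1 mice (−0.61). Pdpn, podoplanin of lymphatic endothelium and fibroblasts, ranged from 33.9 to 69.8 and from 24.3 to 51.3 (−0.49). Pappa, a protease that frees insulin-like growth factors from their binding proteins, ranged from 23.2 to 41.6 and from 17.3 to 26.7 (−0.42). The ranges of all these genes overlapped. Snupn, which returns spliceosomal small nuclear RNAs to the nucleus, ranged from 9.68 to 11.7 and from 6.98 to 10.6 (−0.33), and Scarna2, a guide RNA of Cajal bodies, from 178 to 255 and from 123 to 205 (−0.38). Lrrc10b, a leucine-rich repeat gene, had medians of 24.9 and 17.5 (−0.42). Ssbp4, of a family of single-stranded DNA-binding proteins, had medians of 32.6 and 24, and its highest ieET-1 value of 30.3 just passed the lowest ieCre value of 30.2 (−0.37). For Dnajc17 and Rex1bd the log2 difference was −0.33 each.

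**Figure D3:**
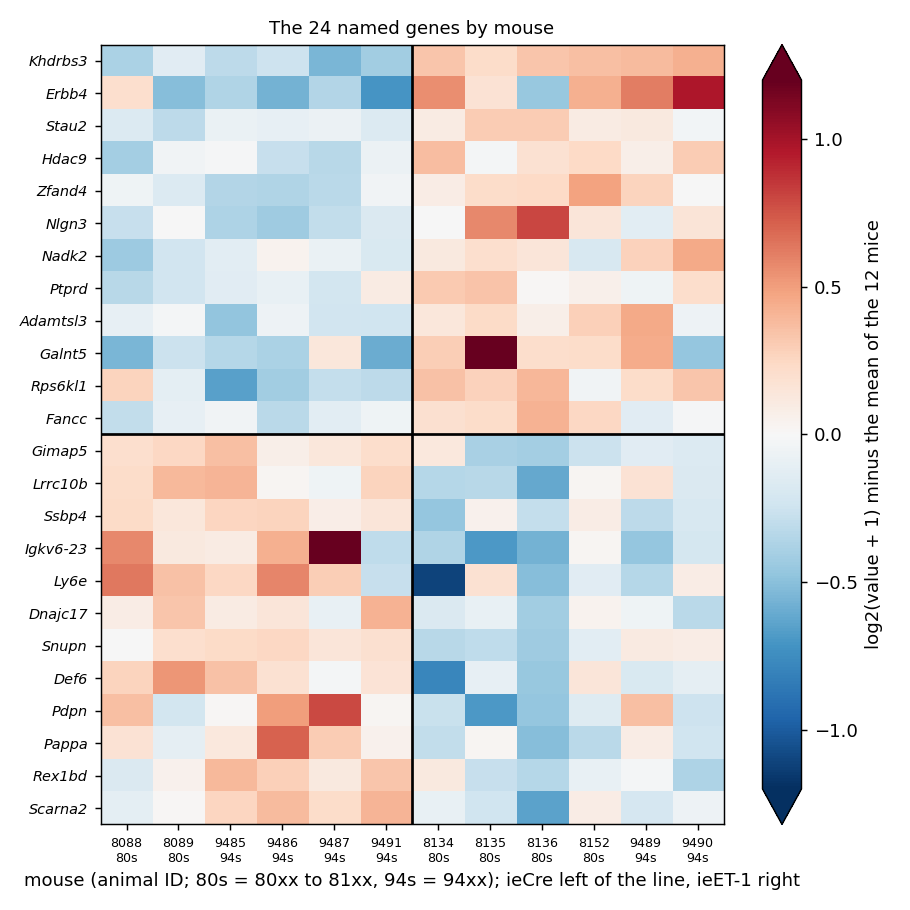
Heat map of the 24 genes described individually (rows) in the 12 mice (columns, ieCre then ieET-1); colour is log2(value + 1) minus the gene's mean over the 12 mice. Khdrbs3 differs in sign between all ieCre and all ieET-1 mice, while rows such as Erbb4 and Pdpn hold mice of either genotype on both sides of the mean.

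In 9 of the 14544 genes (0.0619%) every ieET-1 value lay above every ieCre value, and in 6 (0.0413%) every one lay below. With labels shuffled at random, as in the exact permutation test, a gene separates fully in either direction with a probability of 0.00216. The 2 shares together are below that, so a lack of overlap does not by itself set a gene apart. Besides Khdrbs3, Stau2 and Zfand4, the higher set held Foxp2, Fhod3, Ttbk2, Mto1, Fggy and Nudt22. Foxp2, a forkhead transcription factor, ranged from 29.1 to 37.9 in ieCre and from 38.6 to 43.7 in ieET-1 mice (log2 difference 0.28, unadjusted p = 0.0117 in limma). Fhod3, a formin that assembles actin filaments in muscle, ranged from 3.66 to 6.91 and from 7.22 to 8.49 (0.45). The lower set held Sbsn, Papolb, Slc25a43, Zfp672, Ccdc85b and the unnamed gene ENSMUSG00000097758. Sbsn, suprabasin, ranged from 3.92 to 4.51 and from 2.43 to 3.49 (−0.41). Except for Khdrbs3, none of these passed the threshold.

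Vegfa, summed over its isoforms, did not differ detectably. In ieCre mice Vegfa ranged from 46.3 to 72.7 with a median of 64.4, and in ieET-1 mice from 53.1 to 76.4 with a median of 62.5. The ranges covered one another over most of their length. The log2 difference was 0.04 with a 95% interval of −0.22 to 0.29 (exact 2-sided permutation p = 0.779, n = 6 and 6), and its sign turned with the setting, to −0.04 with the ID range in the fit. For the related ligand Pgf the log2 difference was 0.02. For the receptors it was 0.24 for Flt1, 0.32 for Kdr (unadjusted p = 0.0789 in limma) and, for the co-receptors, 0.28 for Nrp1 and 0.22 for Nrp2. With the ID range as a term it was 0.08 for Flt1, 0.14 for Kdr and 0.09 for Nrp1. Of the 10 tested genes of VEGF ligands and receptors, 0 passed in limma and 0 had an unadjusted p under 0.05, with a median of 0.04 against −0.01 over all genes, or −0.07 once the ID range was a term.

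The mouse genes of the endothelin system itself did not pass the threshold, and 5 of 8 intervals lay within 1.5-fold. Of 8 tested, 0 passed in limma and 0 had an unadjusted p under 0.05, with a median log2 difference of 0.10. It was 0.10 for the contracting receptor Ednra, −0.20 for Ednrb and 0.29 for the converting enzyme Ece1. Once the ID range was a term the median was 0.02, and the values were 0.04, −0.06 and −0.04. Among 21 genes of G protein and GTPase signalling downstream of the receptors the median was −0.06, and 2 had an unadjusted p under 0.05, both lower. These were Ppp1r14a, the inhibitor of myosin phosphatase (−0.39, unadjusted p = 0.0229 in limma), and Rgs4, which ends Gq signalling (−0.33, unadjusted p = 0.0429). For the endothelial nitric oxide synthase gene Nos3 the log2 difference was 0.00, and 11 genes of nitric oxide and cGMP signalling had a median of 0.02, or −0.05 with that term.

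Contractile smooth muscle genes had no common direction. Of 18 tested, 10 were higher and 8 lower, with a median log2 difference of 0.02. The median was −0.10 with the ID range in the fit. The log2 difference was 0.19 for Acta2 (0.01 with that term), −0.04 for Myh11, −0.23 for Tagln and 0.05 for Cnn1. The integrin gene Itga8 reached an unadjusted p of 0.0378 in limma (0.45, means 643 ± 198 and 868 ± 194, SD, n = 6 each) and was not called. It was 0.27 with the ID range in the fit (unadjusted p = 0.130 in limma). Of 26 potassium and calcium channel genes 1 had an unadjusted p under 0.05, Abcc9, the sulphonylurea receptor subunit of the vascular KATP channel (0.31, unadjusted p = 0.0276), and the median was 0.04, or −0.08 with that term. Adrenergic receptors (8 genes, −0.04), prostanoid genes (11, −0.03) and the renin-angiotensin system (8, 0.03) had medians close to that of all genes.

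Matrix genes lay on both sides of 0. Over 16 collagens the median log2 difference was −0.02, with −0.34 for Col1a1 and −0.33 for Col3a1, and 7 of the 16 intervals lay within 1.5-fold. The collagen median was −0.17 with the ID range in the fit, −0.21 among 80xx to 81xx mice, −0.10 among 94xx mice and −0.26 without the libraries high in Gm42418. Over 19 genes of elastic fibres and crosslinking it was 0.04. Mfap4, a glycoprotein of elastic fibres, ranged from 129 to 208 with a median of 165 in ieCre mice and from 97.8 to 151 with a median of 127 in ieET-1 mice. Its log2 difference was −0.40 (unadjusted p = 0.00780 in limma, not called). Over 17 matrix proteases and their inhibitors the median was 0.00, over 20 TGF-beta genes 0.05 and over 13 Notch genes 0.06. These were −0.05, −0.03 and −0.09 with the ID range in the fit, and the elastic fibre median was −0.03. Sost, which encodes the Wnt inhibitor sclerostin and belongs to the osteogenic list, ranged from 2.38 to 7.51 with a median of 5.59 and from 5.99 to 18.6 with a median of 9.85 (0.84, unadjusted p = 0.0109). It was 0.695 with the ID range in the fit (unadjusted p = 0.0416 in limma). Among 94xx mice its ieET-1 values, 5.99 and 6.31, lay inside the ieCre range of 2.38 to 7.51. Mgp, which holds back calcification of arteries, stood at −0.35, or −0.12 with the ID range in the fit.

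Among signalling and metabolic groups the ERBB list, of receptors and their ligands, had 9 of 11 genes higher and a median log2 difference of 0.13, with 0.56 for Erbb3 (0.22 with the ID range in the fit) and 0.10 for Erbb2. Of 15 calcineurin-NFAT and class II deacetylase genes, 1 had an unadjusted p under 0.05, Hdac9, and the median was 0.05, or −0.01 with that term. Over 18 genes of cholesterol synthesis the median was 0.09. Sqle, the squalene epoxidase of that pathway, ranged from 14.7 to 20.2 in ieCre and from 18.3 to 25.5 in ieET-1 mice (0.34, unadjusted p = 0.00987 in limma). Over 20 genes of glycolysis and hypoxia the median was 0.09, or 0.04 with that term, and over 17 nuclear genes of the respiratory chain it was −0.06 with 15 lower, or −0.01 with that term. The 9 tested genes of the mitochondrial genome had a median of −0.30, with mt-Nd2 at −0.57 and mt-Nd1 at −0.40. With the ID range in the fit these were −0.13, −0.32 and −0.23. The median was −0.35 among 80xx to 81xx mice and 0.11 among 94xx mice. Of 17 cell cycle genes 16 were lower, with a median of −0.24, or −0.00 once the ID range was a term.

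Inflammatory genes also stayed below the threshold. Over 21 adhesion molecules, chemokines and cytokines the median log2 difference was −0.10, with −0.65 for Ccl2 and 0.73 for Cxcl13. The median was 0.01 and Ccl2 was −0.34 with the ID range in the fit. Of 17 interferon-stimulated genes 15 were lower, with a median of −0.17, which was −0.07 with the ID range in the fit, 0.09 among 80xx to 81xx mice and −0.27 among 94xx mice. All 7 tested GIMAP GTPases were lower, with a median of −0.16 and 6 intervals within 1.5-fold, and −0.09 with that term. All 8 tested genes of the B lymphocyte and plasma cell list were lower, with a median of −0.27. That median was −0.26 with the ID range in the fit, −0.51 among 80xx to 81xx mice and −0.09 among 94xx mice. The lowest of the 8 was the kappa constant gene Igkc (−0.68). Igkc ranged from 23.5 to 62.3 with a median of 35.8 in ieCre mice and from 10.0 to 38.3 with a median of 22.7 in ieET-1 mice. The 16 immunoglobulin segments high enough to test, of 199, formed a list added after their values were seen, with 14 lower and a median of −0.53. Their summed level was 157 to 315 in ieCre and 121 to 232 in ieET-1 mice, so the genotypes overlapped. Ighg2c, a heavy chain constant gene, ranged from 0.488 to 11.8 and from 0 to 2.29 (−1.30, unadjusted p = 0.00851). Of 10 T lymphocyte genes 3 were higher and the median was −0.08, or −0.03 with that term, and of 14 macrophage genes −0.11, or 0.14 once the ID range was a term.

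The Ly6 family, with membrane-anchored proteins of lymphocytes and endothelium, was taken by gene symbol and was also added after its values were seen. Of 6 tested members, of 15, 4 were lower, with a median log2 difference of −0.28. Besides Ly6e, Ly6a ranged from 154 to 293 with a median of 209 in ieCre mice and from 106 to 230 with a median of 155 in ieET-1 mice (−0.46), and Ly6c1 stood at −0.40 and Ly6c2 at 0.60. Once the ID range was in the fit, the median was −0.19, Ly6a was −0.26 and Ly6c1 −0.23. Of the words of 50 bases in Ly6c1 transcripts 21.5% also occur in Ly6c2, so the split of reads between these 2 genes is uncertain.

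Over all 50 lists, which hold 608 tested genes, 18 genes (2.96%) had an unadjusted p under 0.05, against 2.99% of all genes tested, and 1 was called. The median log2 difference of 30 lists lay within 0.1 of 0 and that of 10 lists lay beyond 0.2. The sign of the median turned in 17 lists once the ID range was a term, and it differed between the ID ranges in 33. Of the 608 intervals, 362 (59.5%) lay within 1.5-fold, against 83.9% of all genes tested.

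**Figure D4:**
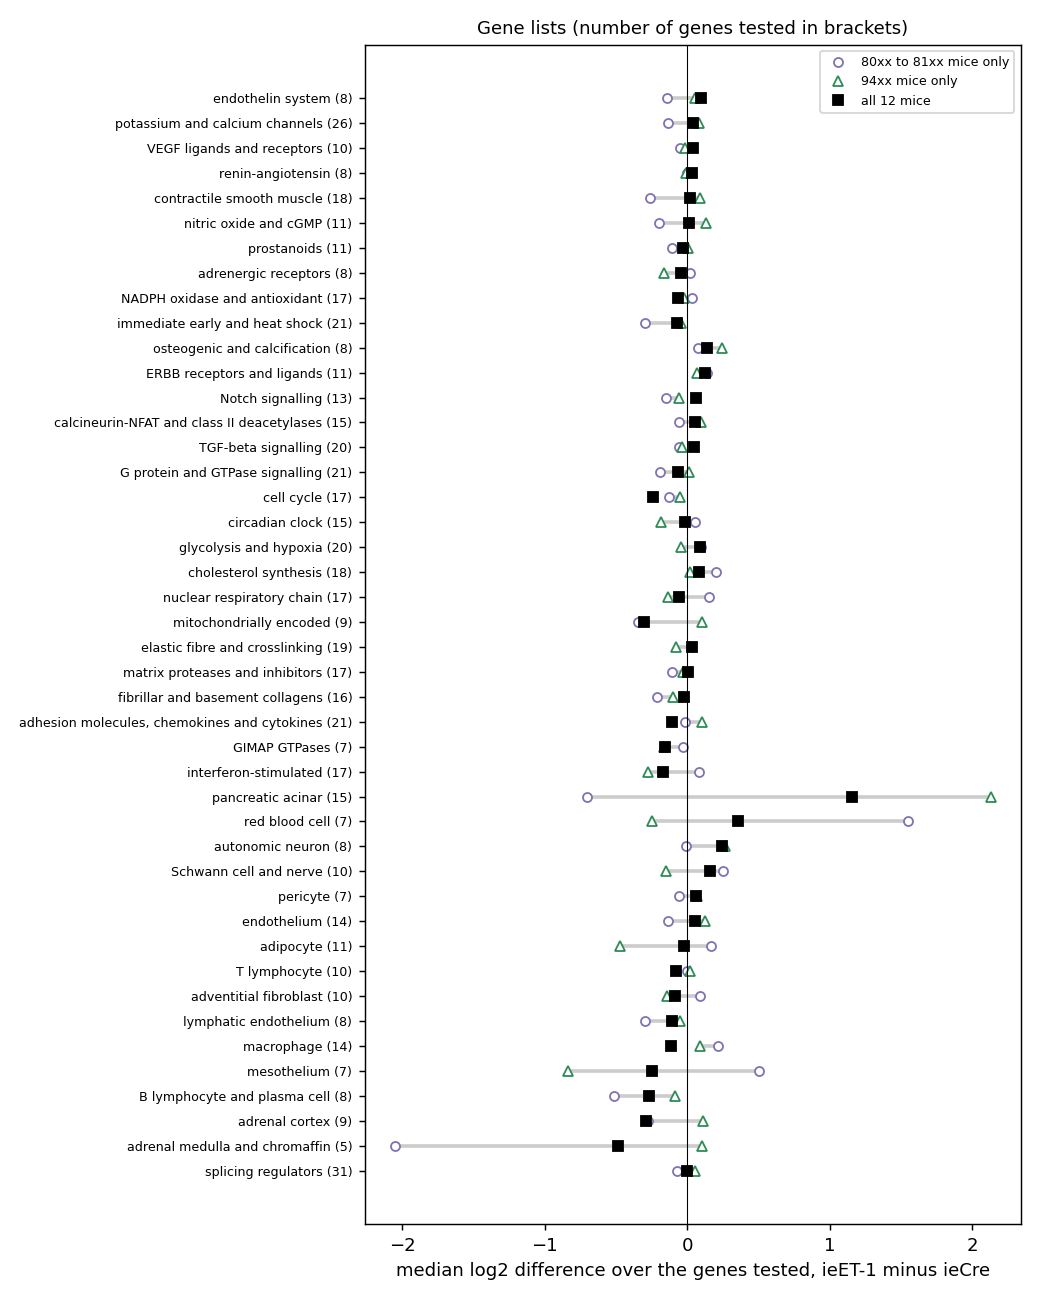
Median log2 difference (ieET-1 minus ieCre) of each gene list with at least 5 tested genes, over all 12 mice, over 80xx to 81xx mice only and over 94xx mice only. Vascular lists cluster near 0, while lists of pancreas, adrenal and red blood cell genes spread widely and, for pancreatic acinar genes, run from −0.71 to 2.13 between the ID ranges.

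Markers of tissues next to the mesenteric arteries varied widely between mice of either genotype. The 15 pancreatic acinar genes, which encode digestive enzymes, were all higher in ieET-1 mice on average, with a median log2 difference of 1.16 and 0 called in limma. Their summed level ran from 543 to 37680 in ieCre and from 1759 to 80742 in ieET-1 mice. The lipase gene Pnlip was 72.8 in ieCre mouse 9491 and 11638 in ieET-1 mouse 9490. The 4 highest Pnlip values and the 4 highest summed levels were all in ieET-1 mice, while the lowest levels were in mice of both genotypes. The median was 0.69 with the ID range in the fit, −0.71 among 80xx to 81xx mice, 2.13 among 94xx mice and −0.27 without the 3 libraries high in Gm42418. Chromaffin genes of the adrenal medulla were highest in ieCre mouse 8088, with Th at 65.3 and Chga at 159, and their list had a median of −0.49, or −1.09 with the ID range in the fit. Epithelial and mesothelial Krt19 reached 141 in ieET-1 mouse 8135, against at most 43.9 in the others. Red blood cell genes had a median of 0.36, which was 0.65 with the ID range in the fit, 1.55 among 80xx to 81xx and −0.25 among 94xx mice. The 14 endothelial genes had a median of 0.06, or −0.02 with that term, and a summed level of 2678 to 4154 in ieCre and 3204 to 4279 in ieET-1 mice. The part of these tissues in other differences, that of Khdrbs3 included, was not tested.

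**Figure D5:**
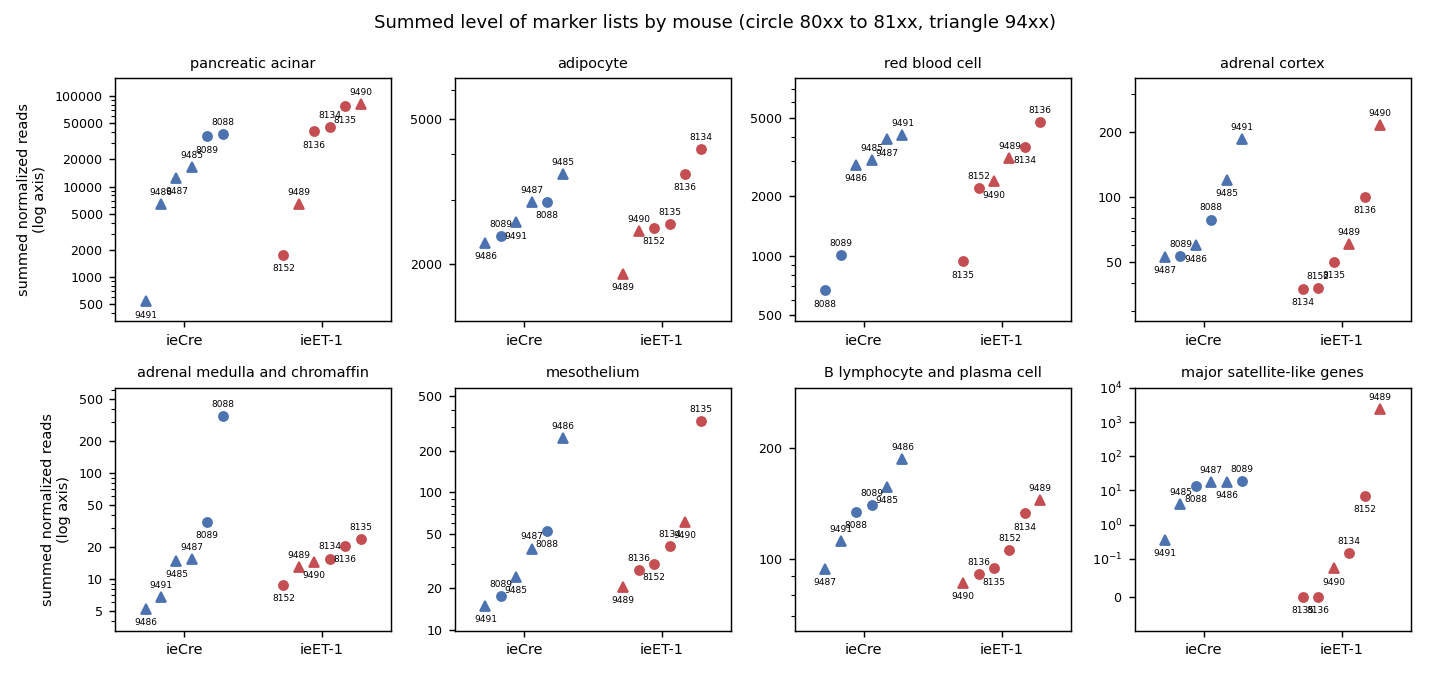
Summed normalised read counts, on logarithmic axes, of marker lists of tissues other than the artery wall and of major satellite-like genes in each of the 12 mice by genotype. Pancreatic acinar levels run from 543 to 37680 in ieCre and from 1759 to 80742 in ieET-1 mice, and single mice stand apart for adrenal medulla (8088) and satellite-like genes (9489).

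The genotype difference was compared between the ID ranges across all genes, since the ranges hold unequal numbers of each genotype. With the ID range as a term, 1 gene was called (0.00688%), again Khdrbs3, and 501 (3.44%) had an unadjusted p under 0.05. For 1 gene (0.00688%) the genotype difference itself differed between the ranges in limma, where 1022 had an unadjusted p under 0.05. It was Rnaset2a, a ribonuclease. In 80xx to 81xx mice it was 2.97 and 3.46 in ieCre and 5.16 to 6.76 in ieET-1 mice, and in 94xx mice it was 6.09 to 8.66 in ieCre and 5.00 and 3.94 in ieET-1 mice. The log2 difference was thus 0.68 in the lower range and −0.64 in the higher, and the difference between them, −1.32, had an adjusted p of 0.0133. That call was lost when the 12 libraries were fitted alone (adjusted p = 0.780), without ieCre mouse 8088 (0.333) and without ieET-1 mouse 9490 (0.0827). Of the words of 50 bases in Rnaset2a transcripts 77.2% also occur in its copy Rnaset2b, so its reads are uncertain.

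Within the 80xx to 81xx mice alone 0 genes were called in limma (0%), with 852 at an unadjusted p under 0.05, and within the 94xx mice 3 were called (0.0206%). The 3 were Khdrbs3, higher, and Scand1 and ENSMUSG00000067833, lower. Scand1, a SCAN domain gene, was 13.7 to 21.1 in the 4 ieCre mice of that range and 7.20 and 5.72 in the 2 ieET-1 mice, a log2 difference of −1.31. Among 80xx to 81xx mice its log2 difference was 0.09, and over all 12 mice it was not called (−0.53).

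At 16 days after tamoxifen, in different mice, 12 genes were called between the genotypes (0.0825%), and of these Khdrbs3 was the one that also passed at 3 months. Its log2 difference was 0.77 at 16 days. Ssbp4 stood at −0.55 at 16 days and −0.37 at 3 months. The 6 called genes of adrenal steroid synthesis had log2 differences of −1.38 to −4.49 at 16 days. At 3 months Star was at −0.30, Hsd3b1 at −0.30, Cyp11b1 at −0.35, Cyp11b2 at −0.20, Cyp11a1 at −0.48 and Cyp21a1 at −0.08, and none passed. Klhdc8a went from −1.30 to 0.09, Trank1 from −1.78 to 0.07 and the gene CAAA01147332.1 from −1.02 to −0.32. For these genes the difference between the times was not tested. Rpl3-ps1, a processed copy of the ribosomal protein gene Rpl3, stood at 2.36 at 16 days and 1.51 at 3 months. At 3 months 2 mice ran against their groups, ieCre mouse 8089 at 11.9 and ieET-1 mouse 8152 at 1.27. Of its words of 50 bases 91.4% also occur in Rpl3, so its reads are uncertain.

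Without a filter on low values 2 of 29020 genes were called (0.00689%). The additional one was Cdrt4, which held 7, 8, 5, 12, 8 and 4 reads in the ieCre libraries and 3, 0, 1, 3, 0 and 3 in the ieET-1 libraries. Every ieET-1 count lay below every ieCre count, and the log2 difference was −0.45 with an adjusted p of 0.0106 in limma. With values near 0 the added constant of 1 shrinks this difference.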

How the data were processed

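Total RNA of mesenteric arteries was sequenced on stranded libraries depleted of ribosomal RNA, per the labels' protocols. Per the submitters' processing notes, the authors used STAR 2.3.1 and edgeR 3.6.8 among other tools. The deposited values are a normalised signal, not CPM as first assumed. Each library's values were divided by its smallest positive value, taken as a single read. After that 100% of 482036 positive values were whole reads (tolerance 0.001), and the effective library size is inferred from this. The row named ID, at most 0.0993% of a library, was dropped. Of 29020 Ensembl IDs, 28424 (97.9%) received symbols from GENCODE M21 (GRCm38) and a gene name table. As to build, annotation, counter and strand setting of the authors: not given in the sources used here.

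As main test, limma 3.58.1 was fitted with a variance trend on log2(value + 1), with 4 group means over 24 libraries (20 residual degrees of freedom), on the 14544 genes that reached a value of 1 in 6 or more libraries. An adjusted p under 0.05 (Benjamini-Hochberg) was called. edgeR 4.0.16 and DESeq2 1.42.0 on recovered reads, other scalings, pseudocounts, filters, an ID-range term, library weights and leaving out each mouse were alternatives, and tests were checked on simulated data. The rule for named genes took the 12 of smallest p in each direction (predicted genes and pseudogenes aside), those called in another fit or at 16 days, and members of each list by smallest p or highest level; other members were named for their role after their values were seen. The genes and lists were chosen with earlier results of these data known. A few genes that the rule would name are not reported here. Replicates are separate mice by animal ID. No 2 libraries agreed within sampling noise (chi-square per degree of freedom at least 12.2 over 276 pairs).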

Additional observations from a re-analysis of the deposited data

Results flagged for a closer look

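In 52 groups of 6 mice, covering the individually described genes, Vegfa and Edn1, the highest or lowest value was compared with the rest, and 2 stood apart by Dixon's criterion for a gap over the range of 6 values, where chance gives about 1 in 20. Erbb4 was 4.42 in ieCre mouse 8088, whose other ieCre mice had 1.88 to 2.68. Galnt5 was 3.07 in ieET-1 mouse 8135, whose other ieET-1 mice had 0.223 to 1.29. For Rnaset2a the genotype difference differed between the ID ranges by −1.32 on the log2 scale, by the interaction test in limma described with that gene.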

How the results depend on the processing

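No paired analysis was possible because the labels give no replicate numbers that mice of the 2 genotypes share. Khdrbs3 was called in 26 of 27 settings. The exception was the 80xx to 81xx mice alone, at 0.57 (adjusted p = 0.591 in limma). Leaving out each mouse gave 0.64 to 0.72, with an adjusted p of at most 0.00249. The number of genes called was 2 without a filter, 0 in 80xx to 81xx mice alone, 3 in 94xx mice alone and 1 whichever mouse was left out. With the ID range as a term it was 1 to 2 when 1 mouse was left out; the second gene, without ieCre mouse 8089, was Rpl3-ps1 (2.21, adjusted p = 0.0417). The number of genes whose genotype difference differed between ID ranges was 0 with the 12 libraries fitted alone and 0 to 8 when 1 mouse was left out. Vegfa turned to −0.0448 with the ID range as a term, −0.0355 without libraries high in Gm42418, −0.0230 in 80xx to 81xx mice, −0.0666 in 94xx mice and −0.0585 with the ID range and without those libraries (an alternative chosen after seeing the data), and ran from −0.0446 to 0.0863 when 1 mouse was left out. Edn1 turned to 0.10 without those libraries, 0.13 in 94xx mice and 0.0946 with both, and ran from −0.10 to 0.0578 when 1 mouse was left out. The causes were not tested. The 23 other individually described genes kept their sign in all 615 values, with 0 called by limma, edgeR or DESeq2. They were chosen for their small p in these same mice, which every setting fits again in whole or in part. Their sign was therefore largely fixed by the choice, and its constancy is no separate evidence. Of 1349 list medians, 1328 moved by less than 1 SD between mice and 21 by more. Other scalings moved the median of all genes by at most 0.012. Genes under the filter were tested only in the fit without one.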

Other observations

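By chromosome, the share of tested genes with an unadjusted p under 0.05 in limma ran, among the autosomes, from 1.43% on chromosome 19 to 5.21% on chromosome 15 (29 of 557 genes). Chromosome 15 holds Khdrbs3, Nadk2, Sqle, Ly6e, Ly6a and Ly6c1. It was singled out after the values were seen and has no test. With library weights 884 genes had an unadjusted p under 0.05 and with the 12 libraries fitted alone 291, and each of these fits called 1 gene.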
